A study of Mus musculus with 3 samples.

Results

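The stretch of mouse chromosome 5 between 111 and 122 Mb (build mm9) carried more called H3K27me3 in primordial germ cells than any of 2408 other stretches of its length. Its members were all H3K27me3 regions lying wholly between positions 111000001 and 122000000. There were 652 of them among 18731 in the genome, and 469 of the 47928 H3K4me3 regions lay in the same span. No region of either list crossed an end of the span. The stretch was chosen by its called H3K27me3, so every value of H3K27me3 length, width, number or spacing below is a description and carries no test. The H3K4me3 list was not used to choose it.

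Primordial germ cells are the embryonic precursors of eggs and sperm. The cells came from gonadal regions of pooled E11.5 embryos, from Oct4:GFP B6 mice crossed to Swiss-Webster females, and were sorted for GFP. Chromatin of 2 aliquots, of 104000 and 97000 cells, was precipitated with an antibody to H3K4me3 or to H3K27me3, and the authors deposited 1 list of called regions for each mark. There are therefore no replicate values, and a 95% Wilson interval below covers the counting of regions only. Neighbouring regions are not independent, so these intervals are narrower than the true uncertainty. The lists give positions on a 200-bp grid with no read counts, so the depth behind a region is unknown. In pooled cells, a mark on a few cells and a weak mark on many cannot be told apart.

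H3K27me3, trimethylation of lysine 27 on histone H3, is laid down by Polycomb repressive complex 2 and is typical of silent developmental genes. H3K4me3 is typical of active and of CpG-rich promoters, and in embryonic cells wide H3K27me3 domains often hold H3K4me3 at the promoters inside them, an arrangement called bivalent. The distal part of mouse chromosome 5 is known for the T-box genes Tbx3 and Tbx5, which act in heart and limb development, and for the LIM homeobox gene Lhx5. The RefSeq table of assembly GRCm38 lists Med13l, Tbx3, Tbx5, Rbm19 and Lhx5 as consecutive protein-coding genes on chromosome 5. That assembly is not the one of the lists, so no region was assigned to a gene, no sequence is shown, and the germ cell identity of the chromatin was not checked against marker genes.

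H3K27me3 covered 35.8% of the stretch (3.93 Mb of 11 Mb), against 2.94% of the rest of chromosome 5 and 2.24% of the rest of the genome. The stretch is 7.21% of the length of chromosome 5 and held 48.6% of its H3K27me3. Cover was low just inside both ends, at 6.23% of the first 0.8 Mb (111000001 to 111800000) and 6.43% of the last 0.6 Mb (121400001 to 122000000), so the dense part begins and stops inside the span. The first 1 Mb inside the start held 222.4 kb and the last 1 Mb before it 11.0 kb, and the last 1 Mb inside the end held 199.6 kb against 6.4 kb in the 1 Mb after it. The first member (111006001 to 111010600, 4.6 kb) began 6.0 kb inside the start, and the nearest region outside (110991801 to 110992600, 0.8 kb) ended 7.4 kb before it. At the other end the last member (121536401 to 121537200, 0.8 kb) lay 462.8 kb inside, and the first region beyond the end (122374401 to 122375800, 1.4 kb) began 374.4 kb after it.

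Most of this H3K27me3 lay in a pair of dense runs with a sparser part between them. Of the 55 windows of 200 kb, 30 were at least 25% covered by H3K27me3, where 2.10% of all such windows on the autosomes and X were, and 17 were at least 50% covered, where 0.432% were. Consecutive windows of at least 25% formed a first run of 12 windows (111800001 to 114200000) and a second run of 14 windows (118600001 to 121400000). The first run held 1563.4 kb in 179 regions and was 65.1% covered, and the second held 1642.2 kb in 263 regions and was 58.7% covered (58.65%). Within the runs no window fell below 64.4 kb. The 4.4 Mb between them were 14.5% covered, in 185 regions, with 3 shorter runs of 1 or 2 windows. Outside the stretch the longest run of such windows in the genome was 4 windows, on chromosome 4 (153400001 to 154200000).

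Single windows of the first run were nearly full. The window 112000001 to 112200000 held 193.0 kb of H3K27me3, 96.5% of its length, more than the fullest window elsewhere in the genome (89.4%). It was followed by 118800001 to 119000000 with 184.2 kb, 112200001 to 112400000 with 182.4 kb, 111800001 to 112000000 with 172.6 kb and 112400001 to 112600000 with 161.6 kb. Of these 5 fullest windows 4 were thus neighbours at the start of the first run. At the other extreme, 7 windows held no H3K27me3. They were the 2 from 111200001 to 111600000, those starting at 114400001, 115400001 and 116200001, and the last 2 of the stretch, from 121600001 to 122000000. The median window held 73.8 kb (quartiles 12.8 and 125.0 kb).

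**Figure D1:**
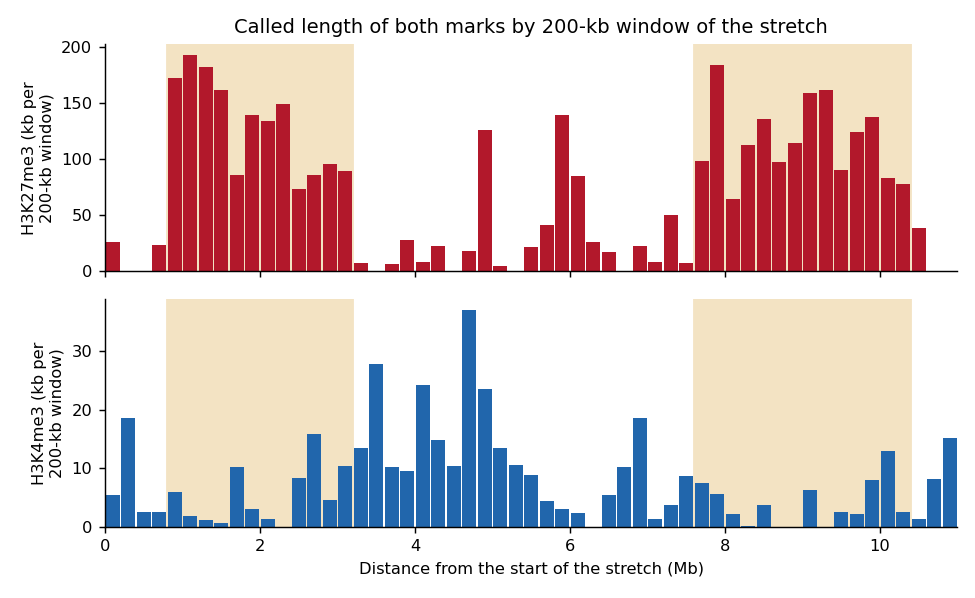
Called length of H3K27me3 (top, kb) and H3K4me3 (bottom, kb) in each of the 55 windows of 200 kb, by distance from the start of the stretch, with the 2 long runs shaded. H3K27me3 reaches 193.0 kb in the first run, and H3K4me3 is highest, at 37.0 kb, between the runs; the 2 vertical scales differ.

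H3K4me3 was densest between the runs. It covered 5.95% of the sequence there, 2.64% of the first run and 1.92% of the second, beside 1.88% of the genome outside the stretch. Per Mb, there were 60.7 H3K4me3 regions between the runs, 36.2 in the first run (36.25) and 25.7 in the second, and 17.95 outside the stretch. The dense runs were thus at or above the level outside, and below that of the sequence between them. The 17 windows at least 50% covered by H3K27me3 held a median of 2.2 kb of H3K4me3, the 25 windows under 25% a median of 10.2 kb. Of 5 windows with no H3K4me3, 4 were at least 25% covered by H3K27me3. The ranges overlapped, since a window at 63.1% H3K27me3 (115800001 to 116000000) also held 23.6 kb of H3K4me3, and 1 window with little H3K27me3 (117200001 to 117400000, 26.2 kb) held no H3K4me3. The window with most H3K4me3, 37.0 kb, was 115600001 to 115800000, which held 17.8 kb of H3K27me3.

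Across the 55 windows the lengths of the marks were negatively correlated (Spearman rho -0.53, Pearson r -0.44). The remaining 13128 windows of the autosomes and X gave a rho of 0.55. Their median was 0.0 kb of H3K27me3 and 1.4 kb of H3K4me3, against 73.8 and 5.6 kb in the stretch. The rho values therefore come from windows of unlike density. Windows of 1 list share a library, and neighbouring windows share regions, so these values are descriptions. The same correlation was computed in each of 2406 other stretches of 11 Mb, taken in steps of 1 Mb. Their median rho was 0.47 (quartiles 0.36 and 0.57), and 1 of them was lower than the stretch, at -0.54. That stretch, on chromosome 4 (129000001 to 140000000), was also rich in H3K27me3, with 1.51 Mb. Negative values were found next to the stretch as well, at -0.40, -0.32, -0.37 and -0.23 in the overlapping stretches of chromosome 5 that start at 122000001, 123000001, 124000001 and 125000001. Elsewhere, windows at least 25% covered by H3K27me3 held a median of 9.2 kb of H3K4me3 (quartiles 4.8 and 14.8 kb, 247 windows). In the stretch the 30 such windows held 3.0 kb (quartiles 1.5 and 7.1 kb).

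The amount of H3K4me3 in the stretch as a whole was high but within the range of other stretches. It totalled 432.8 kb, and 176 of 2408 other stretches (7.31%) held more, up to 841.0 kb. None held as much H3K27me3, the next being 1.68 Mb on chromosome 11 (94000001 to 105000000), where H3K4me3 came to 841.0 kb and rho was 0.0084. Leaving out stretches that overlap a higher one, the next after chromosomes 11 and 4 was on chromosome 19 (37000001 to 48000000), with 1.15 Mb of H3K27me3, 467.2 kb of H3K4me3 and a rho of 0.48. H3K27me3 length divided by H3K4me3 length gave 9.09 in the stretch and at most 6.87 in the others. This ratio contains the length that chose the stretch, so its rank is a description only. The 6.87 came from a stretch of chromosome 15 (15000001 to 26000000) with only 35.0 kb of H3K4me3. The stretch had 34 H3K27me3 regions over 20 kb, where other stretches had a median of 1 and at most 11.

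**Figure D2:**
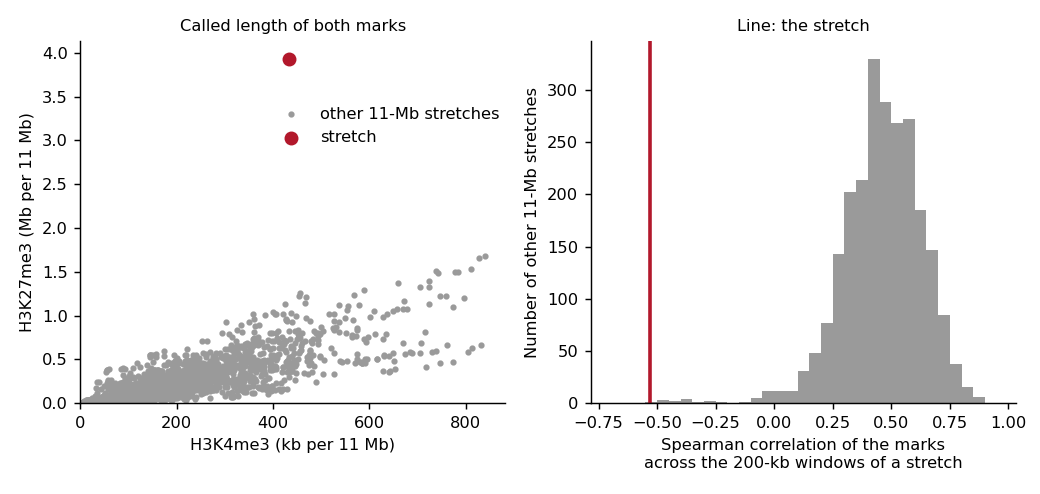
Left, called H3K4me3 (kb) against H3K27me3 (Mb) in each of 2408 other 11-Mb stretches (grey) and in the stretch (red); right, histogram of the Spearman correlation of the marks across 200-kb windows within each stretch, with a red line at the value of the stretch. The stretch stands at 3.93 Mb with 432.8 kb of H3K4me3, and its rho of -0.53 lies at the low end, 1 other stretch being lower.

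The members were wider and closer together than other H3K27me3 regions. Their median width was 2800 bp (quartiles 1350 and 6600 bp), against 1600 bp in the rest of the list (800 and 3600 bp) and 1600 bp in the rest of chromosome 5. Regions over 10 kb numbered 96 and made up 56.6% of the H3K27me3 length of the stretch, where they made up 34.1% of the remaining list. The 34 members over 20 kb held 34.1% of the length of the stretch, against 15.9% for such regions in the remaining list. Width differed along the stretch, with a median of 5000 bp in the first run, 3000 bp in the second and 1800 bp between them. Single-step regions of 200 bp numbered 26 (3.99%), close to the 5.11% of the other regions.

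Gaps between neighbouring members had a median of 2.2 kb (quartiles 0.9 and 6.0 kb, 651 gaps), against 10.0 kb (2.0 and 77.4 kb) elsewhere. Gaps under 1 kb made up 25.04% and gaps under 20 kb 92.3%, where they made up 13.3% and 59.3% elsewhere. The longest gap, 645.4 kb (111059401 to 111704800), separated the 5 members nearest the start from all the others. The next 4 all lay between the runs, at 116004401 to 116486600 (482.2 kb), 114269401 to 114705000 (435.6 kb), 115380601 to 115622200 (241.6 kb) and 117691401 to 117890000 (198.6 kb). These 5 gaps held 16 to 47 H3K4me3 regions each, which covered 4.09 to 12.9% of them. H3K4me3 covered 6.29% of all gaps of 20 kb or more, 2.63% of the H3K27me3 sequence and 1.10% of the gaps under 20 kb. Elsewhere the order was different, with 14.6% of the H3K27me3 sequence, 2.87% of the short gaps and 1.62% of the long ones.

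Joining members less than 20 kb apart gave 51 blocks, of which 10 were a single member and 13 had 10 members or more. The number depends on the joining distance, with 104 blocks under 10 kb and 25 under 50 kb, where the longest became 1844 kb. The 5 longest held 318 members and 61.9% of the H3K27me3 of the stretch. The longest ran for 902.6 kb (119658001 to 120560600, 103 members, 67.9% covered), in the second run. The next ran for 878.6 kb (111823001 to 112701600, 51 members, 90.5% covered) and opened the first run. The others were 112817401 to 113510000 (692.6 kb, 71.5% covered), 119105801 to 119548600 (442.8 kb, 56.4%) and 120655601 to 121050600 (395.0 kb, 71.2%). Blocks over 300 kb numbered 7 in the stretch and 6 in the rest of the genome, where the longest was 551.0 kb, on chromosome 4 (153577001 to 154128000, 59.6% covered).

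The dense blocks differed in texture. In the 878.6-kb block the median member was 11000 bp wide and the median gap 1000 bp, and no gap exceeded 7.4 kb (7400 bp). The 902.6-kb block was made of narrower pieces, with a median member of 3200 bp, a median gap of 1700 bp and gaps of up to 14600 bp. Its widest members, of 85.6 and 73.8 kb, lay in its middle part.

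**Figure D3:**
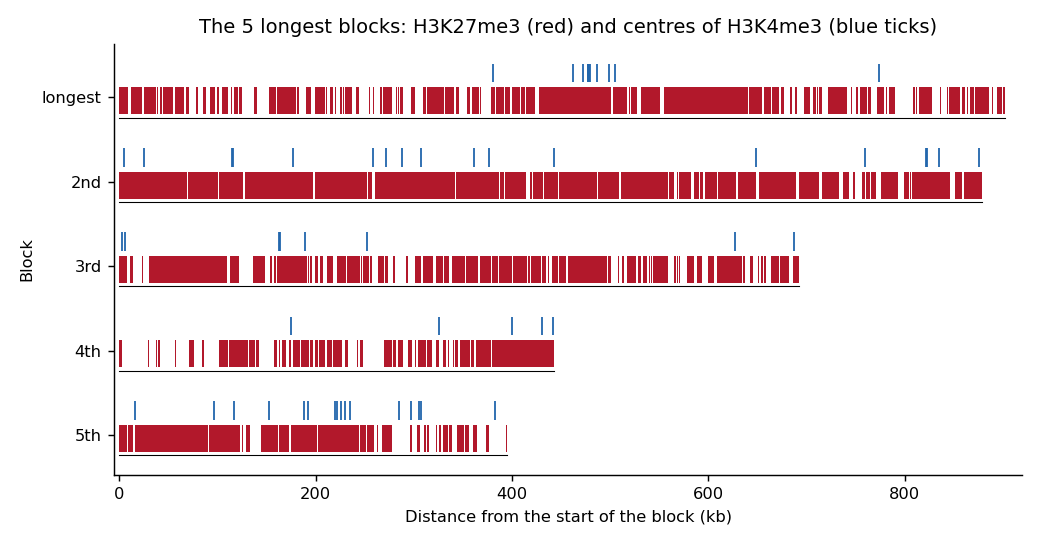
Map of the 5 longest blocks, drawn to scale from the start of each block (kb), with H3K27me3 regions as red bars and blue ticks at the centres of H3K4me3 regions. The longest block measures 902.6 kb and holds 11 H3K4me3 regions, 8 of them in 1 member near its middle, and the second holds 18 spread over 878.6 kb.

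H3K4me3 covered less of the 4 longest blocks than of the genome outside the stretch (1.88%), and more of the fifth. The longest held 11 H3K4me3 regions, covering 0.709% of it, and 8 of them lay in a single member of 73.8 kb (120085601 to 120159400). The 878.6-kb block held 18, covering 1.39%, of which 10 were a single 200-bp step and the widest was 5.2 kb (111845401 to 111850600). The other 3 held 8, 5 and 16, covering 0.837%, 0.587% and 2.94%. Over the 13 blocks longer than 100 kb the median H3K4me3 coverage was 2.13% (range 0.587 to 10.2%). The 181 blocks of that length elsewhere had a median of 4.70% (range 0 to 24.3%), so the ranges overlapped. Low coverage was not particular to the stretch. Such blocks in the 11 Mb of chromosome 5 after it had 0 to 1.82%, and blocks further along reached 10.3%. The longest block elsewhere held 28 H3K4me3 regions covering 3.77%. The block of the stretch with 10.2% was 115805001 to 115924800 (119.8 kb), between the runs.

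**Figure D4:**
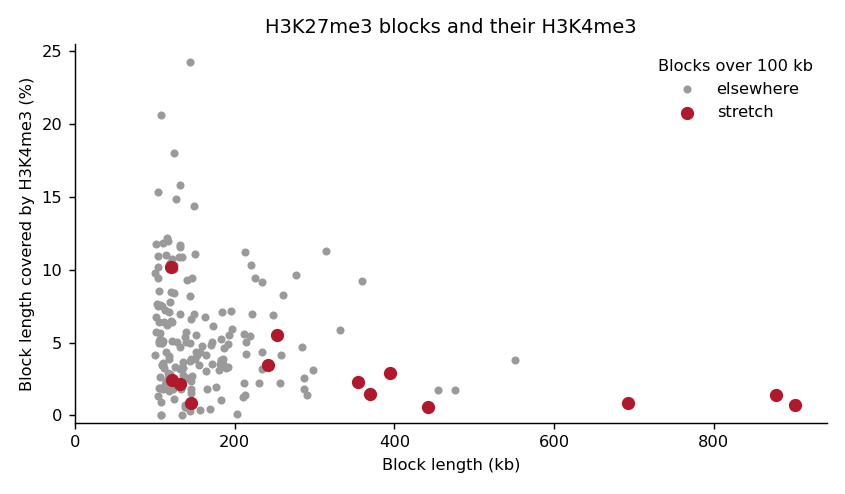
Share of each block covered by H3K4me3 (%) against block length (kb) for the 13 blocks over 100 kb in the stretch (red) and the 181 elsewhere (grey). The 3 longest blocks, at 692.6 to 902.6 kb, have 0.709 to 1.39% H3K4me3, and shorter blocks of both groups reach higher shares.

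Of the 652 members, 117 overlapped H3K4me3 by 1 bp or more, which is 17.9% (15.2 to 21.1%). In the whole list 37.5% did, and outside the stretch 38.2% (37.5 to 38.9%). The share is sensitive to short regions: it was 8.88% with both lists limited to regions wider than 400 bp and 11.503% when 400 bp of overlap were required, beside 31.6% and 31.4% outside. Of 2406 other 11-Mb stretches with H3K27me3 regions, 8 had a lower share, and 6 of those 8 lay on chromosome 5 just after the stretch, starting at 122000001 to 127000001 and overlapping each other. The rest of chromosome 5 had a share of 29.2% (400 of 1371, 26.8 to 31.6%). The 11 Mb after the stretch had a share of 14.7% (10.9 to 19.4%) and the 11 Mb before it 30.8% (23.6 to 39.1%). A low share was therefore also found in the next stretch, where H3K27me3 covered 6.27%. Within the stretch it was 18.4% in the first run (13.4 to 24.8%), 12.2% in the second (8.75 to 16.7%) and 26.5% between them (20.7 to 33.3%).

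Beside all other regions of the genome, the low share was present across widths. Shares by width are not given for the rest of chromosome 5 or for the next stretch. Members of 5200 to 10000 bp overlapped H3K4me3 in 17.2% (21 of 122, 11.54 to 24.9%), against 60.3% of other regions of these widths (58.05 to 62.5%). For 10200 to 20000 bp the shares were 32.3% (20 of 62, 22.0 to 44.6%) and 77.7% (74.7 to 80.5%), and for 20200 to 50000 bp they were 60.7% (17 of 28, 42.4 to 76.4%) and 85.5% (80.6 to 89.3%). For 1200 to 2000 bp they were 8.63% (12 of 139, 5.01 to 14.5%) and 27.4% (26.1 to 28.8%). The intervals count neighbouring regions as independent, which they are not, so whether the intervals overlap is a description and no test. They did not overlap in the 6 classes from 600 to 50000 bp. They did in the narrowest class, of 200 and 400 bp, with 25% (11 of 44, 14.6 to 39.4%) against 39.9% (37.9 to 41.9%), and in the widest. All 29 regions over 50 kb elsewhere overlapped H3K4me3 (88.3 to 100%), and 4 of 6 did in the stretch (30.0 to 90.3%). From 1200 bp up, the share rose with width in the stretch as elsewhere, and members were the wider group.

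**Figure D5:**
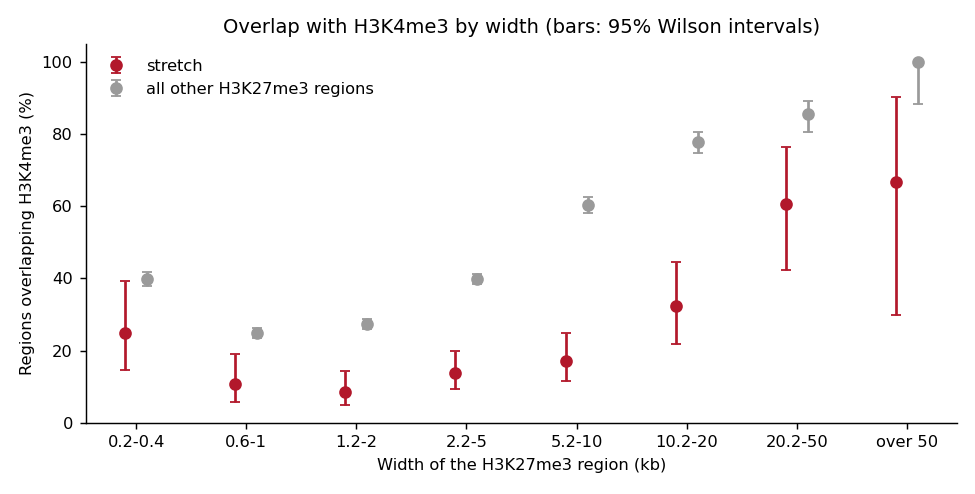
Share of H3K27me3 regions overlapping H3K4me3 (%) by width class (kb) in the stretch (red) and in all other regions (grey), with 95% Wilson intervals. At 5.2 to 10 kb the shares are 17.2% and 60.3%, and in every class the point of the stretch is the lower one.

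The 10 widest members ranged from 42.4 to 85.6 kb and carried 0 to 8 H3K4me3 regions. The widest (120213001 to 120298600, 85.6 kb) had none, the nearest being 50.2 kb away, and a member of 79.0 kb (112848201 to 112927200) had none within 23.8 kb. Members of 81.4 kb (112083801 to 112165200), 74.4 kb (120671601 to 120746000) and 48.2 kb (118944201 to 118992400) overlapped 3, 1 and 1, covering 0.737%, 0.269% and 0.415% of them. More H3K4me3 was found in the 73.8-kb member named above (8 regions, 7.86%) and in the one that opens the first run (111823001 to 111891800, 68.8 kb, 2 regions, 7.85%). The remaining members of the 10 were 111951001 to 111996800 (45.8 kb, no H3K4me3), 112165801 to 112210200 (44.4 kb, 2 regions) and 112033001 to 112075400 (42.4 kb, none). A second member of 42.4 kb ties with the last. Of the 50 H3K27me3 regions over 20 kb in the genome without H3K4me3, 13 were members. Among all 318 H3K27me3 regions over 20 kb, with or without H3K4me3, 10.7% were members.

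Seen from the H3K4me3 side, 167 of the 469 H3K4me3 regions in the span overlapped a member, 35.6% (31.4 to 40.04%), where 18.8% of the whole list did. H3K27me3 covered 35.8% of the span. The share counts regions that touch H3K27me3 by 1 bp or more, so it is not the same measure as cover. By length, 23.9% of the H3K4me3 of the span lay under H3K27me3, which is below the cover. Outside the stretch 18.6% of H3K4me3 regions overlapped H3K27me3, which covered 2.24% of the sequence there. By length, 17.4% of the H3K4me3 there lay under H3K27me3, well above the cover. Within the stretch the share was 62.1% in the first run (51.6 to 71.6%), 70.8% in the second (59.5 to 80.1%) and 22.1% between the runs (17.5 to 27.5%). H3K27me3 covered 65.1%, 58.7% (58.65%) and 14.5% of these parts. H3K4me3 covered 2.63% of the H3K27me3 sequence of the stretch, and 1 of 2406 other stretches had a lower value. That one, on chromosome 15 (15000001 to 26000000), had 2.00% and only 49 H3K27me3 regions. Low values were also found next to the stretch. The overlapping stretches of chromosome 5 that start at 122000001 to 127000001 had 2.88 to 6.17%. Elsewhere in the genome H3K4me3 covered 14.6% of the H3K27me3 sequence.

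The H3K4me3 regions inside H3K27me3 were narrow. Among the 167 the median was 400 bp wide (200 and 1000 bp at the quartiles), and 35.9% were a single step of 200 bp (29.04 to 43.4%). Elsewhere, H3K4me3 regions overlapping H3K27me3 had a median of 1000 bp (400 and 1600 bp), and 16.3% were a single step (15.5 to 17.1%). H3K4me3 regions outside H3K27me3 were alike in the stretch and elsewhere, with a median of 600 bp in each and 29.1% (24.3 to 34.5%) and 27.7% (27.3 to 28.2%) of a single step. H3K4me3 was wholly enclosed by the member in 144 of these 167 pairs (86.2%), while in 10 the regions overlapped in part, in 8 the ends were identical and in 5 the member lay inside the H3K4me3 region. Enclosure was also the most frequent kind elsewhere, in 68.0% of 8965 pairs. Of those pairs 13.6% overlapped in part, 8.01% had identical ends and in 10.4% the H3K27me3 region lay inside. A single H3K4me3 region was found in 90 of the 117 members, 2 in 16, and 3 or more in 11. Among the 6910 overlapping H3K27me3 regions elsewhere the numbers were 5789, 706 and 415.

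The 5 longest sequences under both marks measured 2.2 to 5.2 kb, in members of 6.0 to 73.8 kb. The longest was the 5.2-kb H3K4me3 region at 111845401, wholly inside the 68.8-kb member. The next were 118477001 to 118479800 (2.8 kb, in a member of 6.6 kb), 115642201 to 115644800 (2.6 kb, in 6.0 kb), 120119201 to 120121600 (2.4 kb, in 73.8 kb) and 119009401 to 119011600 (2.2 kb, in 28.6 kb). Of the 5 widest H3K4me3 regions of the span, the other 4 lay outside H3K27me3. The widest in the genome, 13.8 kb (114575201 to 114589000), was between the runs and 116.0 kb from the nearest member. Those of 6.6 kb (111233001 to 111239600), 6.4 kb (115016801 to 115023200) and 5.4 kb (111305801 to 111311200) were 173.6, 48.0 and 246.4 kb from the nearest.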

How the data were processed

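Fixation was in 0.25% formaldehyde and precipitated DNA was amplified over 20 cycles, per the labels' protocols. The submitters' processing notes name Bowtie 0.12.7 and mm9. For each mark the authors deposited a single list of regions, giving start and end positions in bp. The lists are named for ChromHMM, a program that segments a genome into chromatin states. How it was set, how the input entered and how 2 replicates were combined is not given in the sources used here. No score, count or p-value accompanies a region, so the depth is unknown. The input was not analysed here.

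Overlap meant at least 1 bp. Blocks joined members less than 20 kb apart, windows were 200 kb counted from the start of the stretch, and a run was a series of windows at least 25% covered. Other stretches were 11 Mb long, in steps of 1 Mb, on the autosomes and X, without overlap with the stretch. They overlap one another. Chromosome lengths came from GenomeInfoDb 1.38.1, and no region ended beyond them. Named were the 10 widest members, the 5 longest blocks, gaps and shared segments, the 5 widest H3K4me3 regions and the 5 windows with most and least H3K27me3 (7 tied at 0). The stretch and all these choices were made with earlier results of these data known, and the 25% limit of a run after the windows were seen. No test was made, because each mark has 1 list. The counting of overlaps, blocks and covered length was tested on simulated data. The software was matplotlib 3.10.9, scipy 1.17.1, pandas 2.3.3 and numpy 2.4.6 under Python 3.11.15.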

Additional observations from a re-analysis of the deposited data

How the results depend on the processing

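The 16 results were recomputed to give 66 alternative values, of which 46 were alike, 20 moved and 0 changed direction. A change of sign is possible only for rho and for the difference in percentage points, since counts, lengths, shares and ranks carry no sign. Counts, lengths and differences were called alike within 1.5 times, shares and ranks inside the Wilson interval of the reported value. The share of members overlapping H3K4me3 (17.9%) fell to 8.88% above 400 bp of width, was 22.1% with regions less than 1 kb apart joined and 11.503% with an overlap of at least 400 bp. For all other H3K27me3 regions (38.2%) it became 31.6%, 42.1% and 31.4% in the same order, 36.5% when the overlap had to be 50% of the shorter region, and 35.7% once regions with identical ends were dropped. The difference stayed between 18.7 and 22.7 percentage points. The span held 243 H3K4me3 regions above 400 bp, and 28.4% of them overlapped H3K27me3. That share was 22.0% with an overlap of at least 400 bp. The share of other stretches with more H3K4me3 (7.31%) became 8.97% among regions wider than 400 bp. The share of other stretches with a lower overlap share (0.333%) rose to 0.831% with regions joined and was 0.125% above 400 bp. The share with a lower rho (0.0416%) became 0% with regions joined, 0% above 400 bp and 0% with stretches side by side. The number of blocks (51) became 104 when joining under 10 kb and 25 under 50 kb, and the longest became 1844 kb under 50 kb. The rho of -0.53 was -0.42 in windows of 100 kb and -0.69 in windows of 500 kb. These shifts follow in part from fewer or wider regions entering by construction, and other causes were not tested. No paired analysis was possible because each mark has 1 list, so no replicate could be left out either. The lists hold no read counts, so the smallest signal that could be called is unknown.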

Other observations

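Intervals without any H3K4me3 region ran through the dense runs. These were chosen after the values were seen. No such lengths are given for the rest of the genome, so whether these are long for the genome is not shown. H3K4me3 regions were fewer per Mb there (17.95) than in the first run (36.25) or the second (25.7). The longest in the span was 450.0 kb (119589001 to 120039000) and held 57 members that covered 51.6% of it, the widest of them 17.6 kb. The next, 374.0 kb (113070001 to 113444000), lay in the first run and was 71.0% covered by 50 members of at most 27 kb. An interval of 268.6 kb (120162801 to 120431400), held the widest member and was 77.4% covered. Another of 268.6 kb (119011601 to 119280200) was 38.0% covered, and the fifth, 248.2 kb (117158601 to 117406800), lay between the runs and was 15.2% covered.

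Gaps of exactly 600 bp were the most frequent of the 4 shortest sizes on the grid. They made up 75 of 651 gaps in the stretch (11.52%), against 18 of 200 bp, 22 of 400 bp and 48 of 800 bp. Elsewhere 600 bp was also the most frequent of these sizes, at 4.88% of gaps, against 2.08%, 2.93% and 3.41%.

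Of the 302 H3K4me3 regions of the span outside H3K27me3, the median distance to the nearest H3K27me3 region was 38.3 kb, against 73.6 kb elsewhere. This distance depends on the density of H3K27me3, by which the stretch was chosen, so the contrast is a description only. There were 59.3 H3K27me3 regions per Mb in the stretch and 6.84 elsewhere. For the 535 members without H3K4me3 the median distance to the nearest H3K4me3 region was 20.6 kb, against 11.6 kb for such H3K27me3 regions elsewhere.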
